A study of Homo sapiens with 6 samples.

Results

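The 33 genes described here were listed by name and follow glucose through the cytosol. They cover glucose import, the steps of glycolysis, the PFKFB enzymes that set the pace of phosphofructokinase, lactate production and export, the pentose phosphate pathway and 3 genes of the hypoxia-inducible factor (HIF) system. Of these 33 genes, 32 were analysed among the 19330 genes of the count table, and GPI was not analysed here. A total of 30 passed the filter on low counts and were tested, whereas ENO2 and SLC16A3 had too few counts to pass it.

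RNA-Seq was performed on K562 cells, a human line derived from a chronic myelogenous leukemia with erythroid features. The cells carried a lentiviral Cas9 vector (pLentiCRISPRv2) with sgRNAs against control genes (sgCtrl, n = 3) or against N6AMT1 (sgN6AMT1, n = 3), were selected with puromycin and were collected at day 10 after infection. Each library came from a transduction of its own, no isolation of single clones is described, and the sgRNA used in each library is not stated. Both conditions therefore share Cas9, the viral vector, the drug selection and a medium rich in glucose with added pyruvate. N6AMT1 is the catalytic subunit of a methyltransferase that modifies the translation termination factor eRF1, and the study asks how it bears on mitochondrial gene expression. The counts from N6AMT1 itself were 6, 5 and 9 in sgCtrl and 0, 18 and 16 in sgN6AMT1, which is 8.15 ± 2.42 cpm (counts scaled to the TMM-normalized library size) and 2.47 ± 2.18 cpm (SD, n = 3). The conditions did not overlap for it, but the gene was below the filter, and the library at 0 would allow up to 3 counts.

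Glycolysis splits glucose into pyruvate in the cytosol and yields ATP and NADH without oxygen. Lactate dehydrogenase regenerates the NAD+ that the pathway consumes, and the pentose phosphate pathway branches off to supply NADPH and ribose. Under low oxygen the HIF transcription factors raise many of these genes, and cells with impaired respiration commonly rely on glycolysis.

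Libraries held 742470 to 866894 counts in sgCtrl and 959319 to 5526904 in sgN6AMT1, in which replicates 2 and 3 were the deeper ones. Levels are normalized cpm (scaled by TMM, the trimmed mean of M values), and differences were tested by the edgeR quasi-likelihood test over 8324 genes, a gene being called at a Benjamini-Hochberg adjusted p under 0.05. All 12 erythroid and K562 markers were present, with a summed level of 13900 to 20780 cpm in sgCtrl and 20970 to 37940 cpm in sgN6AMT1, and 3 of the 12 were called. Markers of T cells, B cells, hepatocytes, endothelium and fibroblasts summed to at most 22.8 cpm per library. The 4 epithelial markers, which include keratins that K562 cells also make, summed to 894 to 1089 cpm in sgCtrl and 1429 to 1788 cpm in sgN6AMT1, and 2 of the 4 were called. The part of these marker shifts in the differences below was not tested. In such bulk RNA, fewer cells of a kind and less RNA per cell cannot be told apart.

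PKM, ENO1 and PGK1, which encode enzymes of the second phase of glycolysis, rose in sgN6AMT1, and no member was called lower. These 3 calls are 10% of the 30 members tested, beside 9.85% of all genes tested (5.09% called higher and 4.76% called lower). The overall number of calls was thus near the background, and what follows concerns where in the pathway they lay. Before adjustment, 11 of 30 members were under 0.05, 9 higher and 2 lower, beside 26.2% of all genes. Levels of 8 members did not overlap between the conditions (SLC2A1, PFKM, TPI1, PGK1, PGAM1, ENO1, PKM and TALDO1), beside 29.2% of all genes, and in all 8 the sgN6AMT1 libraries were the higher ones, a pattern seen in 15.1% of all genes (14.1% had the opposite one). The log2 fold change of sgN6AMT1 over sgCtrl was positive for 20 members and negative for 10, with a median of 0.22 beside 0.01 for all genes tested.

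**Figure D1:**
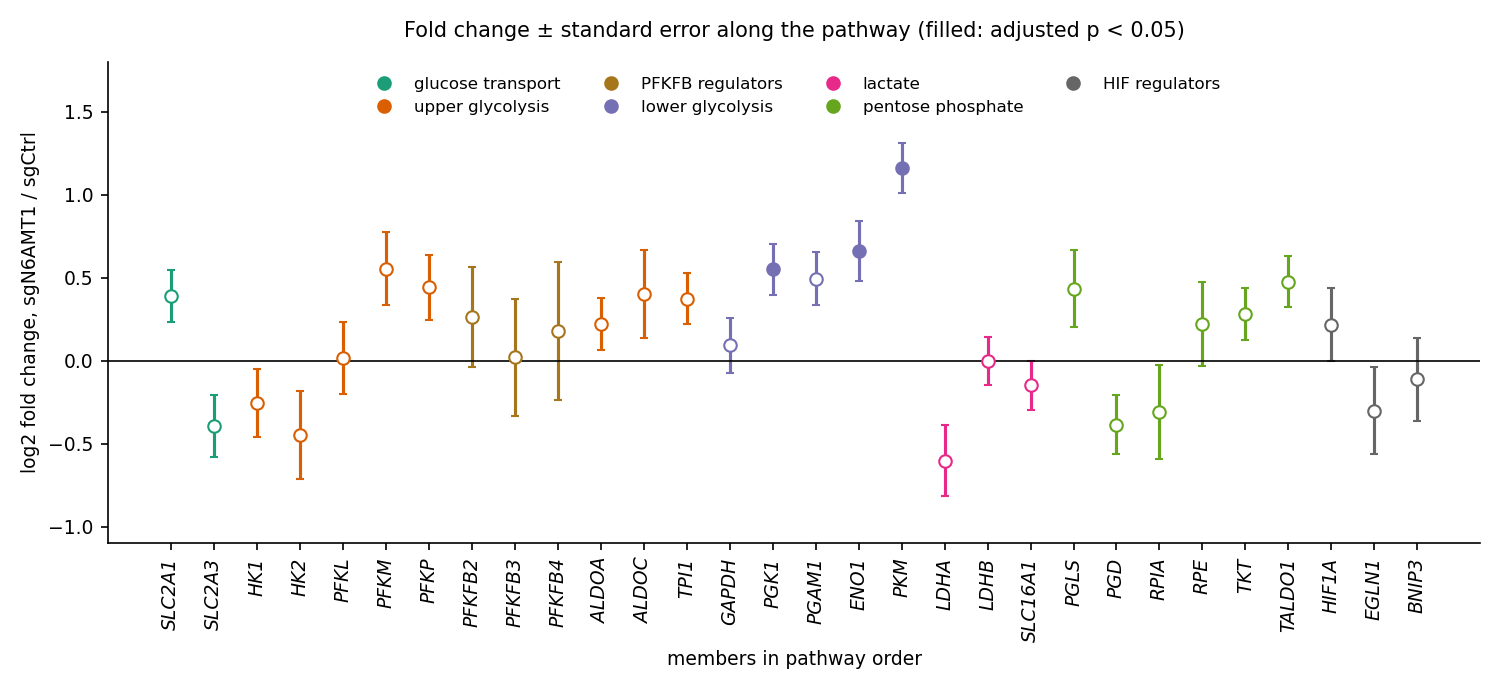
Log2 fold change of sgN6AMT1 over sgCtrl (vertical axis) for the 30 tested members in pathway order (horizontal axis), coloured by role. Points are edgeR estimates with bars of 1 standard error from 3 libraries per condition, and filled points, which are PGK1, ENO1 and PKM, passed an adjusted p of 0.05.

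The 5 tested genes of lower glycolysis, from glyceraldehyde 3-phosphate to pyruvate, had a median log2 fold change of 0.55 and a range of 0.09 to 1.16. Of these 5, 3 rose (60%, beside 5.09% of all genes called higher). Levels of 4 did not overlap and were higher in sgN6AMT1 (80%, beside 15.1% of all genes). The placement of the calls in so small a group was not tested. Where calls fall also depends on precision. The median standard error was 0.16 in this group and 0.21 in upper glycolysis, from hexokinase to triose phosphate isomerase. PFKM of upper glycolysis had a log2 fold change of 0.55 (SE 0.22) and was not called, whereas PGK1 had 0.55 (SE 0.15) and was called. PKM encodes the muscle-type pyruvate kinase, which makes pyruvate and ATP in the last step (chromosome 15, 72199029 to 72231819, minus strand of GRCh38). Its level was 403, 419.9 and 390.2 cpm in the sgCtrl libraries and 819, 841 and 1050 cpm in the sgN6AMT1 libraries. Every sgN6AMT1 library was far above every sgCtrl library, and the sgCtrl libraries lay close together. The fold change was 2.24 (log2 1.16, SE 0.15, 95% interval 0.86 to 1.46, edgeR adjusted p = 2.91e-04), larger than that of 98.1% of the genes tested. PKM was called under every one of the 17 alternative settings. Counts per gene do not separate its alternatively spliced products.

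ENO1 encodes alpha-enolase, which forms phosphoenolpyruvate (chromosome 1, 8861000 to 8879190, minus strand). Its level was 2435, 2419 and 2816 cpm in sgCtrl and 3296, 3686 and 5151 cpm in sgN6AMT1. The conditions did not overlap, and sgN6AMT1 replicate 3 stood above the other two. The fold change was 1.58 (log2 0.66, SE 0.18, edgeR adjusted p = 0.0271). PGK1 encodes phosphoglycerate kinase, the first ATP-yielding step (chromosome X, 77910739 to 78129295, plus strand). It measured 414, 374 and 469 cpm in sgCtrl and 594, 543 and 701 cpm in sgN6AMT1, again without overlap. The fold change was 1.46 (log2 0.55, SE 0.15, edgeR adjusted p = 0.0299). Part of its annotated exons lies within those of ATP7A on the same strand, and how reads there were assigned is not given in the sources used here. Without sgCtrl replicate 1, without sgCtrl replicate 2 or without sgN6AMT1 replicate 3, PKM was the 1 member called, and the adjusted p reached 0.1445 for ENO1 and 0.179 for PGK1. Without both deeper libraries it was again PKM alone, and ENO1 gave a log2 fold change of 0.38 (edgeR adjusted p = 0.537).

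PGAM1, which encodes the phosphoglycerate mutase between these steps, measured 179, 173 and 199 cpm in sgCtrl and 232, 237 and 304 cpm in sgN6AMT1. The conditions did not overlap, and the log2 fold change of 0.49 (SE 0.16) missed the threshold with an edgeR adjusted p of 0.0524. PGAM1 was called without a filter on low counts (edgeR adjusted p = 0.0425), with at least 10 counts per library (0.0428) and without sgN6AMT1 replicate 1 (0.0437). PGAM4, a near-identical copy, measured 44.2 ± 7.27 cpm and 64.1 ± 7.23 cpm (SD, n = 3), so the division of reads between this pair is uncertain. GAPDH, whose product catalyzes the oxidation that opens this phase, is the exception in the group. It measured 2757, 2666 and 3062 cpm in sgCtrl and 2639, 2793 and 3605 cpm in sgN6AMT1, with overlap and a log2 fold change of 0.09 (SE 0.17, edgeR adjusted p = 0.777) that turned negative once corrected for GC and length (-0.11). GENCODE names 65 pseudogenes after GAPDH and none of them is in the count table, so its count depends on the handling of reads with several matches. ENO2, the neuronal enolase, had counts of 3, 5 and 5 in sgCtrl and 19, 54 and 57 in sgN6AMT1, or 5.23 ± 1.04 cpm and 14.8 ± 5.09 cpm (SD, n = 3). These did not overlap, and the log2 fold change of ENO2 was 1.42 with DESeq2 (SE 0.61, adjusted p = 0.146) and 1.37 with edgeR without a filter on low counts (SE 0.49, adjusted p = 0.0554).

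**Figure D2:**
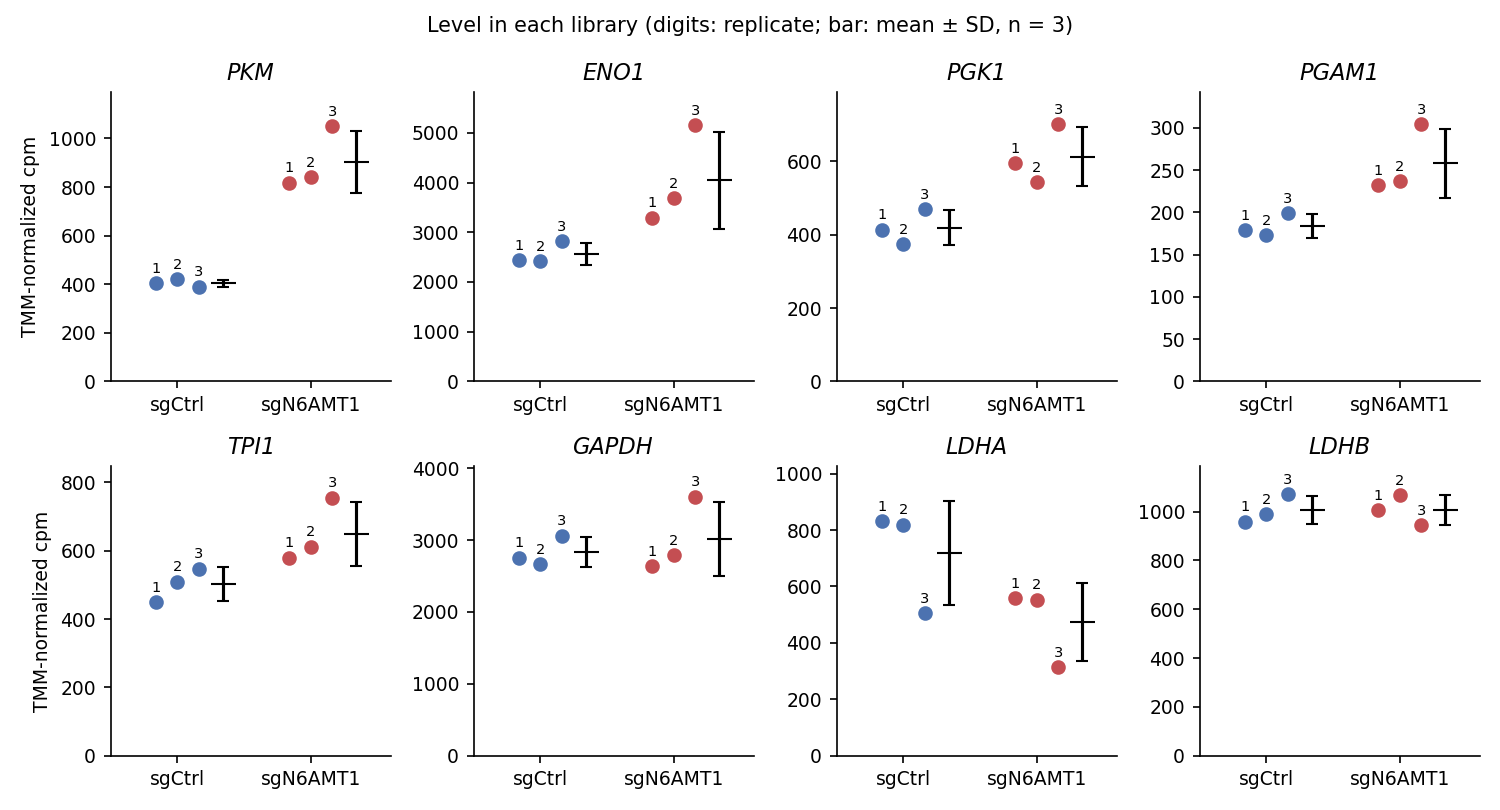
TMM-normalized cpm (vertical axes, starting at 0) of 8 members in each sgCtrl and sgN6AMT1 library (horizontal axes), with the replicate number over each point and the mean with 1 SD (n = 3) beside the points. PKM, ENO1, PGK1, PGAM1 and TPI1 did not overlap between the conditions, whereas GAPDH, LDHA and LDHB did.

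The sequences before the start sites of PKM, ENO1, PGK1 and LDHA are shown because the first 3 genes rose and LDHA, which like them is a textbook HIF target, did not. Each is the 250 bases before a RefSeq start on the gene strand, 5′ to 3′ (GRCh38.p14). Capitals mark ACGTG, the core of the hypoxia response element, read on either strand, so that CACGT is its reverse complement and an E-box, CACGTG, holds ACGTG on both strands. The windows lie at chr15:72231191-72231440 on the minus strand for PKM, chr1:8878687-8878936 on the minus strand for ENO1, chrX:78103998-78104247 on the plus strand for PGK1 and chr11:18394313-18394562 on the plus strand for LDHA.
PKM: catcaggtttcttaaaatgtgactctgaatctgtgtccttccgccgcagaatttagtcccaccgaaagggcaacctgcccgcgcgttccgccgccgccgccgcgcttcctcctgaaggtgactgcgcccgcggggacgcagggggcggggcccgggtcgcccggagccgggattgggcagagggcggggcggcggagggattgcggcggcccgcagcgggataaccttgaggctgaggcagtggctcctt
ENO1: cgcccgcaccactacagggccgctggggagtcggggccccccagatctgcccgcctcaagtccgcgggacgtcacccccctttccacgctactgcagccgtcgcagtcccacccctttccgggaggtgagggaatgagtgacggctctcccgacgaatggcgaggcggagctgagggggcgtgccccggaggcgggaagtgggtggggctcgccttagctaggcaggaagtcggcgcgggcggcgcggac
PGK1: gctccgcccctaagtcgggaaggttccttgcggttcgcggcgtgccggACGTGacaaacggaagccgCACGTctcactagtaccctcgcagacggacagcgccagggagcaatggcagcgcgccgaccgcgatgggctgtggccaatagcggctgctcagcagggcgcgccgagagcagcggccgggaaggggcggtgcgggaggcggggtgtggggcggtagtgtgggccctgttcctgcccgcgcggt
LDHA: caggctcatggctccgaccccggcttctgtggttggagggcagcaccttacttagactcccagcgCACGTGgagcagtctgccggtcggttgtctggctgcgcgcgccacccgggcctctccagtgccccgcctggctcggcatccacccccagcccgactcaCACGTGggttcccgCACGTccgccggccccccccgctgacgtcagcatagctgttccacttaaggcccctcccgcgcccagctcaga
The PKM and ENO1 windows held 0 matches to ACGTG. The PGK1 window held 2, and the LDHA window held 5 counted over both strands, of which 2 E-boxes supply 4. LDHA has a further RefSeq start downstream, not shown, whose window held 0 matches to either motif. In windows of the 250 bases before a RefSeq start, ACGTG was found in 18 of 55 member windows (32.73%) and in 18.51% of 35116 windows of all genes. The 55 windows belong to 29 members, all members analysed but SLC2A3, SLC16A1 and PFKFB2. CACGTG was found in 7 of the 55 (12.73%) and in 6.34% of all windows. Windows of the same gene overlap in part. A match is a description of the letters, and its absence says only that they are not in this window.

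Glucose import showed opposite signs for the transporters measured. SLC2A1, which encodes the widespread transporter GLUT1, measured 130.3, 146.5 and 146 cpm in sgCtrl and 169.7, 177 and 206 cpm in sgN6AMT1, without overlap (log2 fold change 0.39, SE 0.16, edgeR adjusted p = 0.117). SLC2A3, which encodes the high-affinity transporter GLUT3, measured 116, 94.6 and 121 cpm in sgCtrl and 68.5, 77.8 and 102 cpm in sgN6AMT1. The latter overlapped through sgN6AMT1 replicate 3 (log2 fold change -0.39, SE 0.19, edgeR adjusted p = 0.193). Neither difference passed the threshold.

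In upper glycolysis, from hexokinase to triose phosphate isomerase, none of the 8 tested genes was called, 6 log2 fold changes were above 0 and 2 below, and the median was 0.30 (0.10 once corrected for GC and length). TPI1, which interconverts the triose phosphates, measured 449, 509.9 and 547 cpm in sgCtrl and 579.6, 612 and 755 cpm in sgN6AMT1, without overlap (log2 fold change 0.37, SE 0.15, edgeR adjusted p = 0.127, and 0.20 once corrected for GC and length). PFKM, the muscle-type phosphofructokinase, which commits sugar to glycolysis, measured 34.9, 55.4 and 53.05 cpm in sgCtrl and 64.3, 65.3 and 80.7 cpm in sgN6AMT1, also without overlap (log2 fold change 0.55, SE 0.22, edgeR adjusted p = 0.113). PFKP, the platelet-type form, gave 0.44 (SE 0.20) with overlap, which came to 0.17 without sgN6AMT1 replicate 3 and 0.27 once corrected for GC and length, and PFKL, the liver-type form, gave 0.02 (SE 0.22). None of the phosphofructokinase genes passed the threshold. The hexokinases, which trap glucose by phosphorylation, had log2 fold changes of -0.26 (SE 0.20) for HK1 and -0.45 (SE 0.27) for HK2. On leaving out a library these ranged from -0.46 to -0.06 for HK1 and from -0.66 to -0.27 for HK2. HK1 is the main form here, at 872 ± 235 cpm in sgCtrl and 731 ± 181 cpm in sgN6AMT1 (SD, n = 3), and its sgCtrl libraries differed widely. The aldolases, which split the 6-carbon sugar, gave 0.22 (SE 0.16) for ALDOA and 0.40 (SE 0.26) for ALDOC, which was 0.12 without sgN6AMT1 replicate 3. The PFKFB enzymes make and remove fructose 2,6-bisphosphate, an activator of phosphofructokinase, and were scarce. PFKFB2, PFKFB3 and PFKFB4 averaged 13.6 to 29.4 cpm per condition, overlapped, and had log2 fold changes of 0.26, 0.02 and 0.18 with standard errors of 0.30 to 0.41.

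At the step that converts pyruvate and lactate, LDHA and LDHB encode the M and H subunits of lactate dehydrogenase. LDHA measured 832, 819 and 506 cpm in sgCtrl and 557, 553 and 314 cpm in sgN6AMT1. Replicate 3 was the lowest of its condition in both, and sgCtrl replicate 3 lay below 2 of the sgN6AMT1 libraries, so the conditions overlapped. The log2 fold change was -0.60 (SE 0.21, fold 0.658), the lowest among the members, with an edgeR adjusted p of 0.0773. On leaving out a library the log2 fold change of LDHA ranged from -0.81 without sgCtrl replicate 3 to -0.37 without sgN6AMT1 replicate 3, and the edgeR adjusted p from 0.031 to 0.292. It passed the threshold without sgCtrl replicate 3 and without sgN6AMT1 replicate 1, and also in the fit of all libraries without a filter on low counts (edgeR adjusted p = 0.00406). LDHB measured 958, 989.9 and 1072 cpm in sgCtrl and 1006, 1067 and 944 cpm in sgN6AMT1. Its log2 fold change lay within 0.01 of 0 (95% interval -0.28 to 0.28, edgeR adjusted p = 0.998). SLC16A1, which encodes the lactate carrier MCT1, gave 195 ± 14.2 cpm and 175 ± 9.94 cpm (SD, n = 3) with overlap and a log2 fold change of -0.15 (SE 0.15). SLC16A3, which encodes the export carrier MCT4, was nearly silent, with counts of 0, 0 and 1 in sgCtrl and 0, 7 and 4 in sgN6AMT1.

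None of the 6 pentose phosphate genes was called, with 4 positive and 2 negative log2 fold changes and a median of 0.25 (0.12 once corrected for GC and length). TALDO1, the transaldolase of the non-oxidative branch, measured 402, 353 and 428 cpm in sgCtrl and 514, 485 and 643 cpm in sgN6AMT1. It did not overlap, and its log2 fold change of 0.48 (SE 0.15) had an edgeR adjusted p of 0.0554. TALDO1 was called without a filter on low counts (edgeR adjusted p = 0.0401) and with at least 10 counts per library (0.0436), and gave 0.31 once corrected for GC and length (0.121). TKT, the transketolase of the same branch, gave 0.28 (SE 0.16) with overlap, and 0.0951 without sgN6AMT1 replicate 3. Neither gene of this branch passed the threshold. RPE and RPIA, which interconvert the pentose phosphates, gave 0.22 (SE 0.25) and -0.31 (SE 0.28), and RPIA gave -0.0875 without sgCtrl replicate 1. In the oxidative branch, PGLS, the lactonase, gave 0.43 (SE 0.23), and 0.11 once corrected for GC and length, whereas PGD, which produces NADPH and ribulose 5-phosphate, measured 464, 436 and 310.1 cpm in sgCtrl and 315, 367 and 244 cpm in sgN6AMT1. PGD overlapped between the conditions (log2 fold change -0.39, SE 0.18, edgeR adjusted p = 0.171), and as for LDHA, replicate 3 was the lowest library of each condition.

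Among the HIF regulators, HIF1A, the oxygen-regulated subunit, measured 49.0 ± 4.50 cpm in sgCtrl and 58.5 ± 11.4 cpm in sgN6AMT1 (SD, n = 3). EGLN1, the prolyl hydroxylase that marks HIF1A protein for destruction, measured 32.8 ± 4.33 cpm and 26.9 ± 4.01 cpm (SD, n = 3). BNIP3, a HIF target that acts in mitophagy, measured 49.1 ± 18.2 cpm and 46.6 ± 6.34 cpm (SD, n = 3). All 3 overlapped between conditions, with log2 fold changes of 0.22, -0.30 and -0.11 and standard errors of 0.22 to 0.26. HIF proteins are regulated mainly through their stability, which RNA counts do not measure.

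Within enzyme families, the share of each form was computed from levels per transcript length (TPM). SLC2A3 made up 43.95%, 36.3% and 42.4% of the SLC2A1 and SLC2A3 total in sgCtrl and 26.3%, 27.99% and 30.4% in sgN6AMT1, with means of 40.9% ± 4.01 and 28.2% ± 2.05 (SD, n = 3). PFKL made up 36.1% ± 2.82 of the phosphofructokinase genes in sgCtrl and 28.5% ± 2.995 in sgN6AMT1 (SD, n = 3). ENO2 made up 0.159% ± 0.0284 of the enolases in sgCtrl and 0.299% ± 0.148 in sgN6AMT1 (SD, n = 3), from as few as 3 counts. These 3 of the 12 shares did not overlap between the conditions, each with a two-sided exact permutation p of 0.1 (0.4 adjusted over the 12 shares), and 0.1 is the smallest p that 3 libraries against 3 allow. For levels, a different measure, 29.2% of all genes did not overlap. A share can also fall while its gene does not. PFKL itself had a log2 fold change of 0.02 (SE 0.22), whereas SLC2A3 had -0.39 (SE 0.19), and neither was called. LDHA made up 29.2% ± 6.65 of LDHA and LDHB in sgCtrl and 21.2% ± 4.41 in sgN6AMT1 (SD, n = 3, exact permutation p = 0.3), with overlap. HK2 stayed at or under 4.36% of the hexokinases and ALDOC at or under 4.64% of the aldolases in every library.

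**Figure D3:**
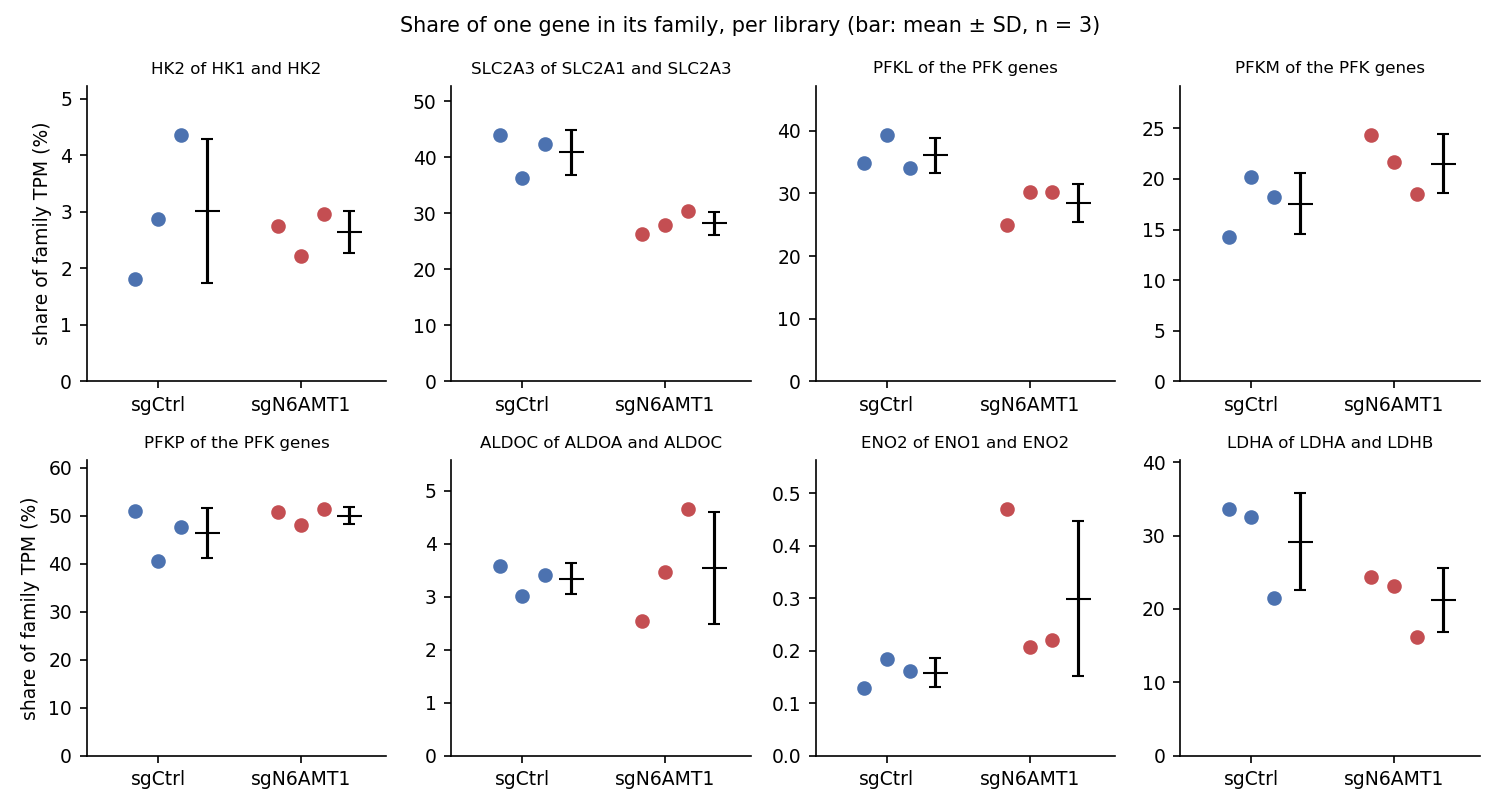
Share of a gene in the summed TPM of its family, in percent (vertical axes, starting at 0), for 8 shares in the sgCtrl and sgN6AMT1 libraries (horizontal axes), with points for libraries and bars for the mean and 1 SD (n = 3). SLC2A3, PFKL and ENO2 did not overlap between the conditions, and the other 5 did.

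Ordered by mean TPM in sgCtrl, GAPDH led the members at 3720 ± 111 TPM, followed by ENO1 at 2426 ± 105, LDHB at 1306 ± 30.6 and ALDOA at 1284 ± 241 TPM (SD, n = 3). LDHB and ALDOA did not differ beyond their spread, and sgCtrl ranges overlapped in 21 of the 31 neighbouring pairs of this order. TPI1, TALDO1, LDHA, HK1, PGD and PKM followed between 628 and 298 TPM. At the foot stood PFKFB3 at 5.15, ENO2 at 3.85 and SLC16A3 at 0.243 TPM. In sgN6AMT1, ENO1 averaged 3587 ± 689 TPM beside 3710 ± 456 TPM for GAPDH (SD, n = 3), so that their spreads met. PKM averaged 621 ± 57.2 TPM, above LDHA at 340.1 ± 112 TPM (SD, n = 3), whereas in sgCtrl PKM at 298 ± 22.8 TPM lay below LDHA at 547 ± 159 TPM (SD, n = 3). The lengths are those of a single representative transcript per gene, and with the summed exon length PKM in sgCtrl came to 139.6 TPM, so its place depends on that choice.

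**Figure D4:**
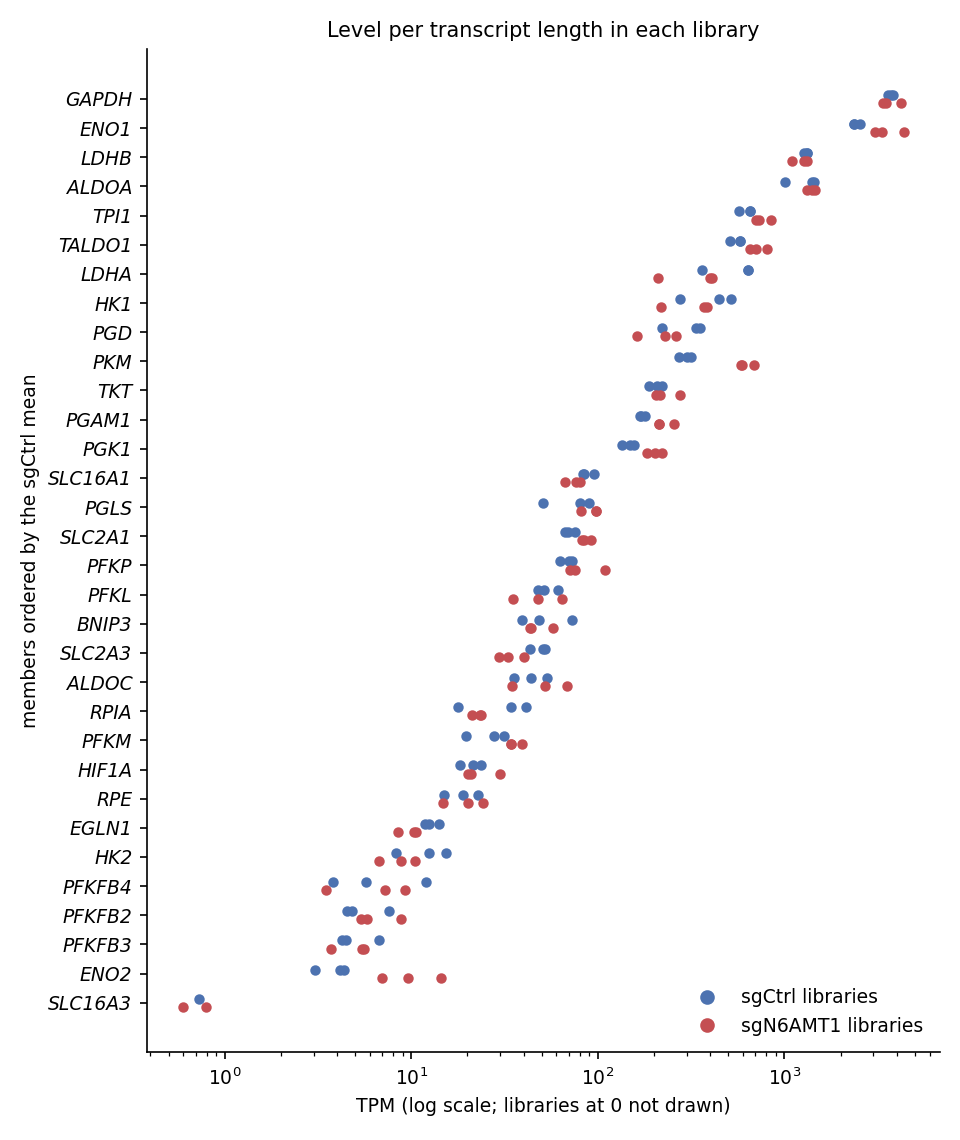
TPM on a log axis (horizontal) for the 32 members analysed (vertical axis, ordered by the sgCtrl mean), with a point for each sgCtrl and each sgN6AMT1 library and libraries at 0 left out. Members span GAPDH at a mean of 3720 TPM to SLC16A3 at 0.243 TPM, and the PKM points of the conditions are separate.

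All members together took 1.31%, 1.297% and 1.26% of the counts in the sgCtrl libraries and 1.40%, 1.49% and 1.69% in the sgN6AMT1 libraries, with 95% Wilson intervals that cover counting error only and span at most 1.28% to 1.33% in the shallowest library. The conditions did not overlap. Lower glycolysis accounted for 0.635% ± 0.0392 in sgCtrl and 0.864% ± 0.152 in sgN6AMT1 (SD, n = 3), again without overlap, while every other role overlapped. The lactate genes averaged 0.191% ± 0.0149 and 0.163% ± 0.0229 (SD, n = 3). These sums weigh members by their counts, so they are not independent of the calls above. ENO1 went from a mean of 2557 cpm in sgCtrl to 4044 cpm in sgN6AMT1, and PKM from 404 to 903 cpm. Among the 30 tested members, log2 fold changes were positive for 20 and negative for 10. Whether the remaining members differed as a sum was not tested.

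The libraries did not contribute equally. sgN6AMT1 replicate 3 was the highest library for 15 of 30 members (50%), beside 24.4% of all genes, and the lowest for 7 (23.33%), beside 22.62% of all genes. The median deviation of the lower glycolysis genes from the sgCtrl mean was 0.37 in sgN6AMT1 replicate 1, 0.38 in replicate 2 and 0.75 in replicate 3 on the log2 scale. Base composition moved with the fold changes as well. Member transcripts had a median GC content of 53.0%, beside 47.1% for all genes tested, and across 5 bins of rising GC content the median log2 fold change of all genes went from -0.14 to 0.18. After correction for transcript GC and length, the members had a median of 0.09, and PKM (log2 fold change 1.00), ENO1 (0.49) and PGK1 (0.62) kept their calls, with edgeR adjusted p-values of 1.39e-04, 0.0274 and 0.00949.

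**Figure D5:**
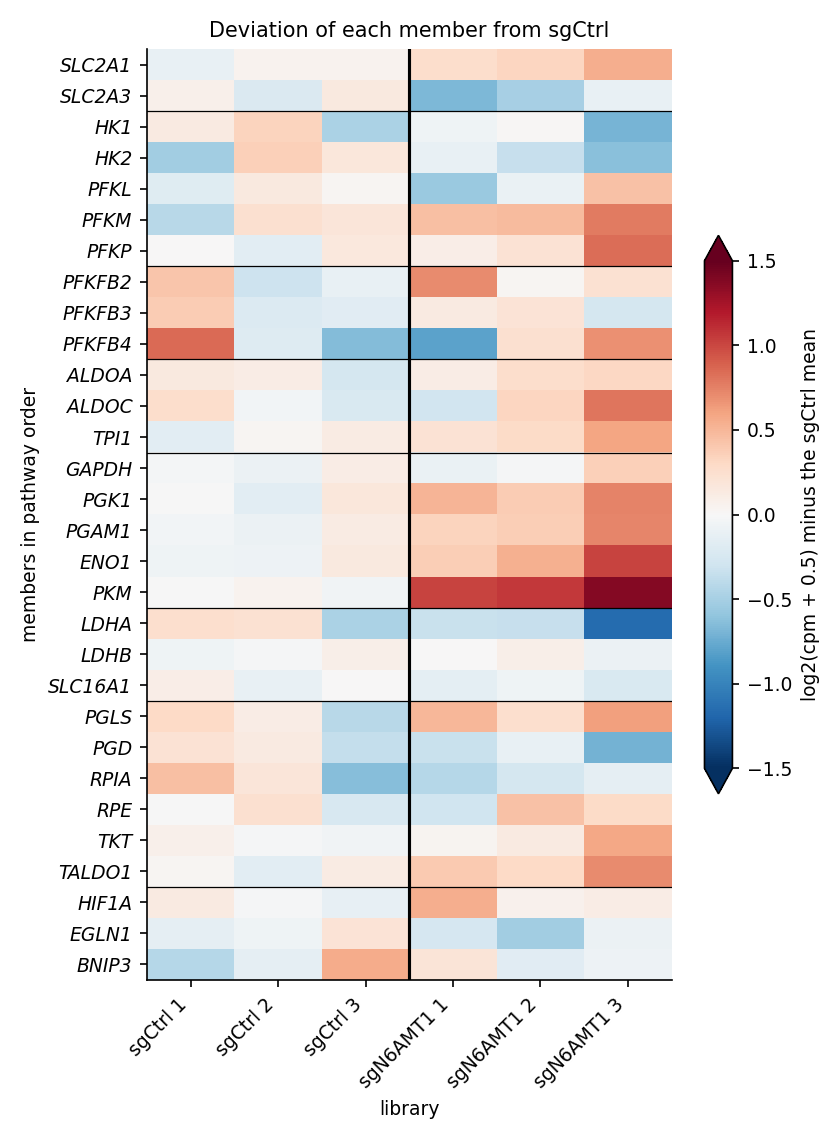
Heat map of log2(cpm + 0.5) minus the sgCtrl mean for the 30 tested members (rows, in pathway order with lines between roles) in the 6 libraries (columns), red for above and blue for below the sgCtrl mean. PGK1, PGAM1, ENO1 and PKM are red in every sgN6AMT1 library, and sgN6AMT1 replicate 3 holds the strongest colours for many members.

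Other genes of these pathways were read from lists that leave out the members. These lists, and the HIF lists below, were chosen with earlier results of these data known. The shares called in them are therefore descriptions and give no independent support. Of 41 further genes in or beside glycolysis, 11 were tested, with a median log2 fold change of 0.09. Of these 11, 3 were called (27.27%, beside 9.85% of all genes). PKLR, the liver and red cell pyruvate kinase, fell from 29.6, 27.7 and 25.9 cpm in sgCtrl to 10.5, 12.8 and 11.1 cpm in sgN6AMT1. Its log2 fold change of -1.24 (SE 0.30, edgeR adjusted p = 0.0142) was opposite in sign to that of PKM, and it was called in all settings but those without sgCtrl replicate 1, without sgCtrl replicate 2 and without both deeper libraries. MINPP1, an inositol polyphosphate phosphatase that can also act on 2,3-bisphosphoglycerate, fell from 81.8 ± 15.3 cpm to 36.5 ± 2.49 cpm (SD, n = 3, log2 fold change -1.14, edgeR adjusted p = 0.00257). BSG, the chaperone that carries the lactate transporters to the cell surface, rose from 237 ± 32.2 cpm to 387 ± 42.2 cpm (SD, n = 3, log2 fold change 0.71, edgeR adjusted p = 0.00818, not called without sgCtrl replicate 2 or without both deeper libraries). PGM2 and ADPGK, with log2 fold changes of 0.09 and 0.22, were not called. Of 10 further pentose phosphate genes, 4 were tested and 0 were called by edgeR or were under an unadjusted p of 0.05, with a median log2 fold change of 0.21. PRPS1 and PRPS2, which make the ribose donor of nucleotide synthesis, gave 0.09 and -0.43, and SHPK gave 0.33.

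Of 16 further HIF pathway genes, 13 were tested and 6 were called, 4 higher and 2 lower (46.15%, beside 9.85% of all genes, median log2 fold change of the 13 tested -0.17). EPAS1, which encodes HIF-2alpha, rose from 16.1, 12.7 and 20.0 cpm in sgCtrl to 42.2, 31.4 and 44.2 cpm in sgN6AMT1 (log2 fold change 1.25, SE 0.29, edgeR adjusted p = 0.0136). EGLN3, a HIF prolyl hydroxylase that is itself induced by HIF, rose by 1.25 on the log2 scale (SE 0.35, edgeR adjusted p = 0.029) and was not called by DESeq2 (adjusted p = 0.0711). TCEB2 and RBX1, subunits of the VHL ubiquitin ligase, rose by 0.62 and 0.81. TCEB2 was not called once corrected for GC and length, and DESeq2 did not call RBX1 (adjusted p = 0.0607). The coactivators EP300 and CREBBP fell by 0.80 and 1.03 on the log2 scale, with CREBBP at 102 ± 26.9 cpm and 50.6 ± 4.86 cpm (SD, n = 3). Without sgCtrl replicate 1 or without sgCtrl replicate 2, EPAS1, RBX1, EP300 and TCEB2 were not called. RBX1 and EP300 also lost the call without sgN6AMT1 replicate 2, TCEB2 on leaving out any library but sgN6AMT1 replicate 1, and EGLN3 without sgCtrl replicate 2, sgCtrl replicate 3 or sgN6AMT1 replicate 2. Without both deeper libraries none of these 6 was called. CUL2 (-0.37), TCEB1 (-0.17) and EGLN2 (0.05) were not called.

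Of 32 HIF targets outside glycolysis, 16 were tested and 3 rose, with 0 called lower (18.75%, beside 9.85% of all genes and 5.09% called higher, median log2 fold change of the 16 tested 0.04). BNIP3L, a mitophagy receptor that is also strongly expressed in maturing red cells, measured 22.8, 25.4 and 17.7 cpm in sgCtrl and 64.3, 53.5 and 59.4 cpm in sgN6AMT1 (log2 fold change 1.41, SE 0.25, edgeR adjusted p = 0.00197). P4HA2, a collagen prolyl hydroxylase, rose by 1.37 (SE 0.31) and BHLHE40, a transcriptional repressor, by 1.57 (SE 0.27) on the log2 scale, with edgeR adjusted p-values of 0.0107 and 0.00193. BNIP3L and BHLHE40 were called under every alternative setting, and P4HA2 was not called without sgCtrl replicate 1, without sgCtrl replicate 2 or without both deeper libraries. The targets with the highest levels, TFRC (-0.25), MIF (0.01) and ERO1A (-0.07), were not called.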

How the data were processed

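RNA-Seq counts of 3 sgCtrl and 3 sgN6AMT1 libraries of K562 cells were analysed. The authors trimmed reads with cutadapt, mapped them to GRCh38 with HISAT2, and deposited raw counts per gene, without normalization. By the protocol, libraries were stranded and made from rRNA-depleted total RNA, although polyA RNA is the molecule named in the labels. The counting tool and the handling of strand and of reads with several matches are not given in the sources used here. In 50 gene symbols a spreadsheet currency format was undone, PGK1 among them, and 18915 of 19330 symbols matched GENCODE release 44.

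Library totals were 742470 to 5526904 counts, so low genes are least precise in the sgCtrl libraries. Where the labels give condition and replicate, libraries were grouped by them. After filterByExpr and TMM, all 6 libraries entered a fit without covariates by glmQLFit, followed by glmQLFTest (edgeR 4.0.16, R 4.3.3, limma 3.58.1). The Benjamini-Hochberg adjustment ran over 8324 tested genes, and the common biological coefficient of variation was 0.16. The paper used DESeq2, which served as an alternative (1.42.0). Others were RLE factors, total counts, normalization without mt-DNA-encoded genes, other filters, the newer quasi-likelihood method, a replicate block, a loess correction for GC content and length, and leaving out libraries. TPM used GENCODE representative transcripts, and motif windows came from RefSeq. Shares were compared by two-sided exact permutation (SciPy 1.17.1, Python 3.11.15).

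Members and lists were chosen with earlier results of these data known. All members are described, and list genes are named if called, with up to 3 others of the highest level. P-values measure the spread between the 3 transductions of each condition.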

Additional observations from a re-analysis of the deposited data

How the results depend on the processing

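PKM, ENO1 and PGK1 were the members called in the main analysis (3, median log2 fold change 0.22, 820 genes in all), and also with DESeq2, RLE factors, total counts, normalization without mt-DNA-encoded genes, the newer quasi-likelihood method and the GC and length correction. Of 915 values for single genes under other settings, 802 kept direction and side of the threshold, 42 lost and 16 gained the call, and 55 changed sign, all of the latter in genes not called. No filter gave 6 members (5 higher, 1 lower; median of all genes 0.12) and at least 10 counts in every library gave 5, all higher (median 0.25). The GC and length correction gave a median of 0.0898. Leaving out a library gave 1 to 5 members called (1 to 4 higher, 0 to 1 lower), medians of 0.15 to 0.29 and 220 to 951 genes in all. Without the 2 deeper libraries, where the remaining sgN6AMT1 library is assumed to vary like sgCtrl, 122 genes and 1 member, PKM, which was higher, were called (median 0.11). The cause was not tested, beyond the fewer libraries or genes of each setting.

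The replicate numbers were not taken to pair the libraries. Deviations of same-numbered libraries correlated at -0.000522, 0.0827 and 0.19 over 8324 genes, so not every pair passed 0.1. Replicates 2 and 3 of sgN6AMT1 correlated best with their own number and replicate 1 with sgCtrl replicate 2 (0.14). With a replicate block, 6 members were called (5 higher and 1 lower, LDHA, with an edgeR adjusted p of 0.00318) among 1195 genes, and with the block and the GC and length correction 8 (5 higher, 3 lower) among 1333, with a median of 0.10. Members added were PGAM1, TALDO1 and LDHA, then HK1 and PGD.

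Log2 fold changes that crossed 0 were those of genes not called. With DESeq2 these were PFKL -0.0192, PFKFB3 -0.00378 and MIF -0.00938. With RLE factors it was MIF -0.000422. With total counts these were PFKL -0.00742 and MIF -0.00836. Under the filter of 10 counts it was LDHB 0.0249. With the replicate block these were PFKL -0.0397 and ERO1A 0.00392. With the GC and length correction these were PFKL -0.166, PFKFB3 -0.0341, ALDOA -0.0021, GAPDH -0.106, LDHB 0.0155, EGLN2 -0.178, MIF -0.324 and ERO1A 0.0644. With the replicate block and that correction these were PFKL -0.21, GAPDH -0.11, LDHB 0.0155, EGLN2 -0.167, MIF -0.311 and ERO1A 0.146. Without the 2 deeper libraries these were PFKL -0.551, PFKFB4 -0.941, ALDOC -0.291, GAPDH -0.0875, LDHB 0.0122, RPE -0.299, BNIP3 0.136, PGM2 -0.0628, SHPK -0.291, EGLN2 -0.0805, MIF -0.0391 and ERO1A 0.141. Leaving out each library gave ranges of -0.263 to 0.18 for PFKL, -0.119 to 0.223 for PFKFB3, -0.134 to 0.707 for PFKFB4, -0.0581 to 0.175 for GAPDH, -0.0419 to 0.0443 for LDHB, -0.302 to 0.222 for BNIP3, -0.0244 to 0.324 for PRPS1, -0.109 to 0.149 for EGLN2, -0.123 to 0.127 for MIF and -0.268 to 0.297 for ERO1A. Differences in share, in percentage points, ranged from -0.976 to 0.297 for HK2, -2.37 to 7.87 for PFKFB2, -4.59 to 1.02 for PFKFB3, -8.25 to 6.74 for PFKFB4 and -0.334 to 0.721 for ALDOC on leaving out a library, and the summed exon length reversed none of the 12.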
